A study of Mus musculus with 15 samples.

Results

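The genes described are 9 transcription factor genes that define hepatocyte identity: Hnf4a, Foxa1, Foxa2, Foxa3, Cebpa, Onecut1, Nr1h4, Ppara and Prox1. They were chosen by name for their role in liver, with earlier results of these data known though by no rule on values, and they are 9 of the 21887 protein-coding genes measured. All 9 were matched by symbol to the RefSeq annotation, and none was lost to a filter. Each gene was described by the breadth and number of its H3K4me3 peaks, by H3K27me3 islands in its surroundings and by H3K9me3 nearby.

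The study profiled 3 histone marks by chromatin immunoprecipitation and sequencing (ChIP-seq) of micrococcal nuclease-digested chromatin from mouse liver. All mice were C57Bl/6, 8 to 12 weeks old and on a normal diet, and livers were taken in the morning. Wild-type (WT) livers were compared with Uhrf1hepKO (KO) livers, in which Uhrf1, a gene for a protein needed to copy DNA methylation, is deleted in hepatocytes by the name of the line. WT livers were also sampled at 0, 30, 40 and 96 h of regeneration.

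H3K4me3 was measured in 2 WT and 2 KO libraries. H3K27me3 was measured in 2 WT libraries (replicate 1, and replicate 2, which is the 0 h library of regeneration), in 1 KO library and in 1 WT library at each later time. H3K9me3 was measured in 1 library of each genotype, and 3 input libraries served as controls of the authors' calls. The titles place H3K4me3 replicate 2 and H3K9me3 in round 2, and H3K27me3 at 0, 30, 40 and 96 h in round 3. The other ChIP libraries have no round in their titles, so the KO H3K27me3 library shares this label with WT replicate 1 only. The labels do not say what a round was, and its part in the differences between libraries was not tested. The labels give neither the Cre driver, nor the way regeneration was started, nor whether replicates came from separate animals, so any spread between replicates may be technical. The KO liver keeps Uhrf1 in its other cells, and in whole liver a mark on fewer cells cannot be told apart from a weaker mark in each cell.

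The factors act in layers. FOXA proteins are pioneer factors that bind nucleosomal DNA and open liver enhancers, while HNF4A, CEBPA, ONECUT1 and PROX1 form a cross-regulating network that turns on metabolic genes and holds back other fates. NR1H4 (the bile acid receptor FXR) and PPARA (the fatty acid receptor of fasting) are nuclear receptors that respond to ligands. H3K4me3 sits at active starts and spreads widely over genes of cell identity, Polycomb proteins lay down H3K27me3 on silent developmental genes, and H3K9me3 belongs to heterochromatin.

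The promoters of the 9 genes were not of one kind, and a few are shown because they span the range of CpG content, the sequence at which UHRF1 acts. RefSeq sequences of build GRCm38.p6, from 250 bases before to 50 bases after the start, are printed with each CpG in capitals. Onecut1 (chr9:74861671-74861970, plus strand) had the most CpGs, 38, and Nr1h4 (chr10:89506609-89506908, minus strand) had 7. The proximal start of Hnf4a (chr2:163546905-163547204, plus strand), which carried the broad H3K4me3 domain, had 4 CpGs, as did its distal start (chr2:163506607-163506906, plus strand).
Onecut1: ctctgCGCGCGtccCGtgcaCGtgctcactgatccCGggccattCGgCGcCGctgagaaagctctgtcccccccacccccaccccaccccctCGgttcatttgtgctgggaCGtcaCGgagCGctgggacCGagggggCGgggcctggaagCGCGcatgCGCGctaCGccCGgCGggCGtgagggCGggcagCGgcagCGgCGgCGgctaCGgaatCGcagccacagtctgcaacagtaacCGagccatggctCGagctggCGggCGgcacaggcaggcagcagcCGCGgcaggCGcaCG
Nr1h4: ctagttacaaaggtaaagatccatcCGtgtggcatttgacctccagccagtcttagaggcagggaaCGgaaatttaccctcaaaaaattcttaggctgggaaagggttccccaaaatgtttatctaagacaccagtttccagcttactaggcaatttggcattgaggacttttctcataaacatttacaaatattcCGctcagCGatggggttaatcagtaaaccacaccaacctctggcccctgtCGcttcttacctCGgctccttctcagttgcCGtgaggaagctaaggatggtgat
Hnf4a proximal: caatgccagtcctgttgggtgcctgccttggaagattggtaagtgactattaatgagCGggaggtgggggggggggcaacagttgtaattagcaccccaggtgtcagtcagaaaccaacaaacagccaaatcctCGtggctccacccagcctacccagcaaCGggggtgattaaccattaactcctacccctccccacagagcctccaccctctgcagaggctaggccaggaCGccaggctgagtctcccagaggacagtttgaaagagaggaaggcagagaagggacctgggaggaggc
Hnf4a distal: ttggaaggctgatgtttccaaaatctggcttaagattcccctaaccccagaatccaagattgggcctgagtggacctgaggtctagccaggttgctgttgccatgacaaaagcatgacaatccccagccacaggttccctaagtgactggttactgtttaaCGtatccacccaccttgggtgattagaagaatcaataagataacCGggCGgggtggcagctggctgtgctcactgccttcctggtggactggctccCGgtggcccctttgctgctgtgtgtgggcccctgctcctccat
The starts used for the other genes were on chromosome 12 at 57546111 (Foxa1), chromosome 2 at 148046969 (Foxa2), chromosome 7 at 19023539 (Foxa3) and 35119293 (Cebpa), chromosome 15 at 85735776 (Ppara) and chromosome 1 at 190170827 (Prox1).
The median over 21263 promoters of protein-coding genes was 13 CpGs. The promoters used for the other members held 30 CpGs in Ppara, 29 in Cebpa, 26 in Foxa1, 25 in Prox1, 22 in Foxa3 and 12 in Foxa2. Onecut1 thus exceeded 93.5% of promoters, whereas both Hnf4a promoters exceeded 23.9%. Among the 13 annotated member promoters, the ONECUT letters ATCAAT, searched on both strands, occurred in 2 (the distal Hnf4a start and the most 5′ Foxa2 start), against 6.54% of all promoters. The FOXA letters TGTTTAC occurred in 1, that of Foxa1 (3.01% of all promoters). The C/EBP letters TTGCNNAA (10.2% of all) and the HNF4 letters CAAAGTCCA (0.451% of all) occurred in none.

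The lists differed in depth of calling. The H3K4me3 lists held 72177 and 73431 peaks in WT and KO replicate 1 but 25714 and 27006 in replicate 2, covering 45.5, 44.9, 21.4 and 25.3 Mb. H3K27me3 islands at a false discovery rate of at most 0.01 covered 417 Mb in WT replicate 1, 483 Mb at 0 h, 500 Mb in KO, 417 Mb at 30 h, 378 Mb at 40 h and 459 Mb at 96 h. For the replicate 2 H3K4me3 libraries the titles name H3K4me3 and an antibody field names H3K9me3; the titles were followed. At Uhrf1 itself the H3K4me3 domain was 1.52 and 1.15 kb in WT and 1.21 and 1.28 kb in KO, which does not check the deletion, since the mark at a start can persist on a deleted allele and in other cells.

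All 9 genes carried broad H3K4me3 in both genotypes. Breadth is the length of the domain at the start, with peaks joined over gaps of at most 1 kb. A domain was present in all 4 libraries at 9 of 9 members, against 56.6% of all genes. With breadth in the top 5% of genes in all 4 libraries were 8 of the 9, against 2.58% of the 12388 genes with a domain in all 4. Foxa2 was the exception, in KO replicate 2 only. The count fell to 5 when peaks were joined over gaps of up to 3 kb, and also to 5 when each list was reduced to an equal covered length. The share of all genes was not counted under these settings. The median breadth of the members was 9.77 and 6.31 kb in WT replicates 1 and 2 and 10.5 and 6.27 kb in KO replicates 1 and 2, whereas that of all genes with a domain was 1.49 to 1.97 kb. By the mean of 4 libraries the order was Ppara, Foxa1, Prox1, Onecut1, Foxa3, Foxa2, Hnf4a, Cebpa and Nr1h4, and each pair of neighbours in this order overlapped in their values.

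**Figure D1:**
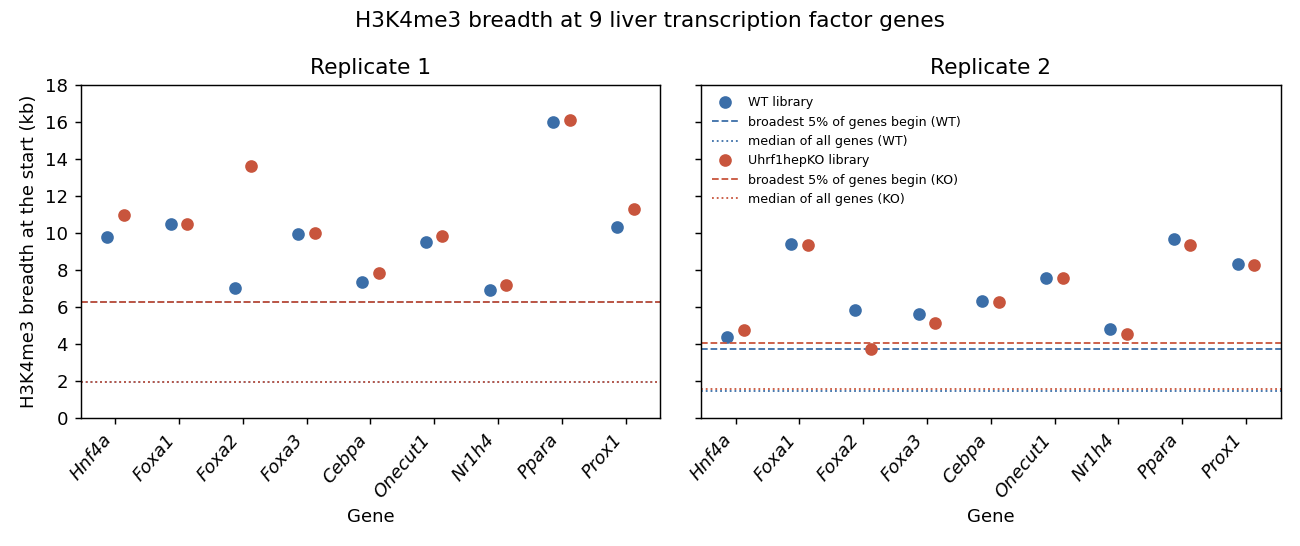
H3K4me3 breadth at the start in kb (vertical axis) for the 9 genes in the WT (blue) and KO (red) library of each replicate; 1 point is 1 library. Dashed lines mark the breadth at which the broadest 5% of genes begin and dotted lines the median of all genes. Ppara is broadest at 16.0 and 16.1 kb in replicate 1, and Foxa2 in KO replicate 2, at 3.75 kb, is the point under its dashed line.

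Breadth set these domains apart more than height did. The highest authors' fold enrichment in the domain was 15.8 to 23.6 in replicate 1 and 41.1 to 78.0 in replicate 2. These folds lay between the 37.1 and 93.9 percentiles of all genes with a domain. No difference between groups was tested on these values, since 2 libraries against 2 allow no p under 0.333 by a two-sided exact permutation test.

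Among the pioneer factors, Foxa1 had the most even domain. Its breadth was 10.5 and 9.42 kb in WT and 10.5 and 9.35 kb in KO replicates 1 and 2, from 2 or 3 peaks in each library. The WT and KO values overlapped. The domain ran from 1.06 to 1.22 kb upstream of the start used to 8.29 to 9.35 kb downstream, past the 3′ end of the short gene. The outermost 5′ part of the annotated gene lay outside the domain. The domain ranked 149 and 10 among all genes in WT and 139 and 15 in KO. An end of the protein-coding gene Ttc6 lay within 1 kb of the domain, taken over the 4 libraries together. The part of Ttc6 in this breadth was not tested.

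Foxa3 also had a domain mostly after its start, with more breaks. Its breadth was 9.97 and 5.62 kb in WT and 10 and 5.13 kb in KO, with 10 and 3 peaks in WT and 9 and 3 in KO. Each replicate 1 library was above each replicate 2 library, and genotypes overlapped. The gene locus, taken with 15 kb on either side, held 3 domains shared by all 4 libraries, 1 at the end of Foxa3 and another beside Irf2bp1 and Mypop. An end of the protein-coding gene Sympk lay within 1 kb of the domain at the Foxa3 start, taken over the 4 libraries together. The part of Sympk in this breadth was not tested.

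At Foxa2 the KO to WT ratios depended strongly on the joining of peaks. Joining mattered for the other members too, since without it the median breadth of the members in WT replicate 1 was 3.89 kb in place of 9.77 kb. The breadth of Foxa2 was 7.02 and 5.84 kb in WT but 13.6 and 3.75 kb in KO, from 4, 3, 9 and 1 peaks in that order. The KO libraries thus held both the highest and the lowest value, on either side of both WT libraries. In KO replicate 1 a peak of fold 4.47 lay 4.88 to 5.06 kb after the start, so the gaps were 444 and 819 bp, and the domain ran on through the peaks beside the lncRNA gene 9030622O22Rik. In WT replicate 1 no such peak was called, and the gap of 1333 bp ended the domain.

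In replicate 2 as well, the limit on gaps decided the length at Foxa2. The gap between the start peak and those upstream was 991 bp in WT and 1008 bp in KO, on either side of the 1 kb limit. The total length of H3K4me3 peaks over Foxa2 and 10 kb on each side, which needs no joining, was 11818 and 7484 bp in WT and 11505 and 7402 bp in KO. On this measure the genotypes differed by log2 ratios of -0.04 and -0.02, less than the spread between replicates.

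In the network, Hnf4a carried its broad H3K4me3 domain at 1 of its 2 annotated starts. At the proximal start the domain was 9.77 and 4.4 kb in WT and 11 and 4.77 kb in KO, made of 8 and 2 peaks in each genotype. KO was above WT within each replicate, yet both replicate 1 values exceeded both replicate 2 values. At the distal start there was a peak of 213 bp (fold 4.08) in WT replicate 1, 246 bp (fold 3.68) in KO replicate 1 and 146 bp (fold 5.8) in KO replicate 2, and no peak in WT replicate 2. The proximal start is the one of adult liver. A further domain beside the lncRNA gene Hnf4aos, ending 4.63 kb before the start, measured 7385 and 4552 bp in WT and 7297 and 4651 bp in KO.

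Cebpa, a factor of metabolic genes and growth arrest, had 7.36 and 6.31 kb in WT and 7.86 and 6.27 kb in KO. Its domain covered the whole gene, reached 2.44 to 3.23 kb upstream, and held 2 to 4 peaks. Onecut1, also known as HNF6, had 9.5 and 7.59 kb in WT and 9.84 and 7.55 kb in KO. In Onecut1 the domain reached 0.512 to 0.758 kb upstream and 7.01 to 9.18 kb into the gene, so it was one-sided. In both genes each replicate 1 value was above each replicate 2 value, and WT and KO overlapped.

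Prox1, a homeobox factor of liver and lymphatic vessels, had a domain on both sides of its start. Its breadth was 10.3 and 8.34 kb in WT and 11.3 and 8.28 kb in KO, of which 4.72 to 5.95 kb lay upstream of the start, towards the antisense lncRNA gene Prox1os. In KO replicate 2 it was 1 unbroken peak of 8283 bp. WT and KO overlapped.

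Of the nuclear receptors, Ppara had the broadest domain of the 9 in 3 libraries and nearly so in the fourth. Its breadth was 16.0 and 9.66 kb in WT and 16.1 and 9.34 kb in KO, from 12 and 4 peaks in WT and 11 and 4 in KO. It ranked 33 and 8 of all genes in WT and 31 and 17 in KO, and in KO replicate 2 Foxa1 was ahead by 9.35 to 9.34 kb. A separate domain inside the gene, 35 kb after the start, covered 8699 and 1266 bp in WT and 7363 and 1782 bp in KO.

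Nr1h4 was the narrowest on average and had marks at both of its gene starts. At the inner start the breadth was 6.92 and 4.79 kb in WT and 7.21 and 4.55 kb in KO, from 2 peaks in each WT library and 5 and 2 in KO. At the 5′ end of the gene bounds it was 7608 and 2788 bp in WT and 9301 and 2752 bp in KO. This second domain lay 18.5 kb from the inner start, and WT and KO overlapped at both.

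**Figure D2:**
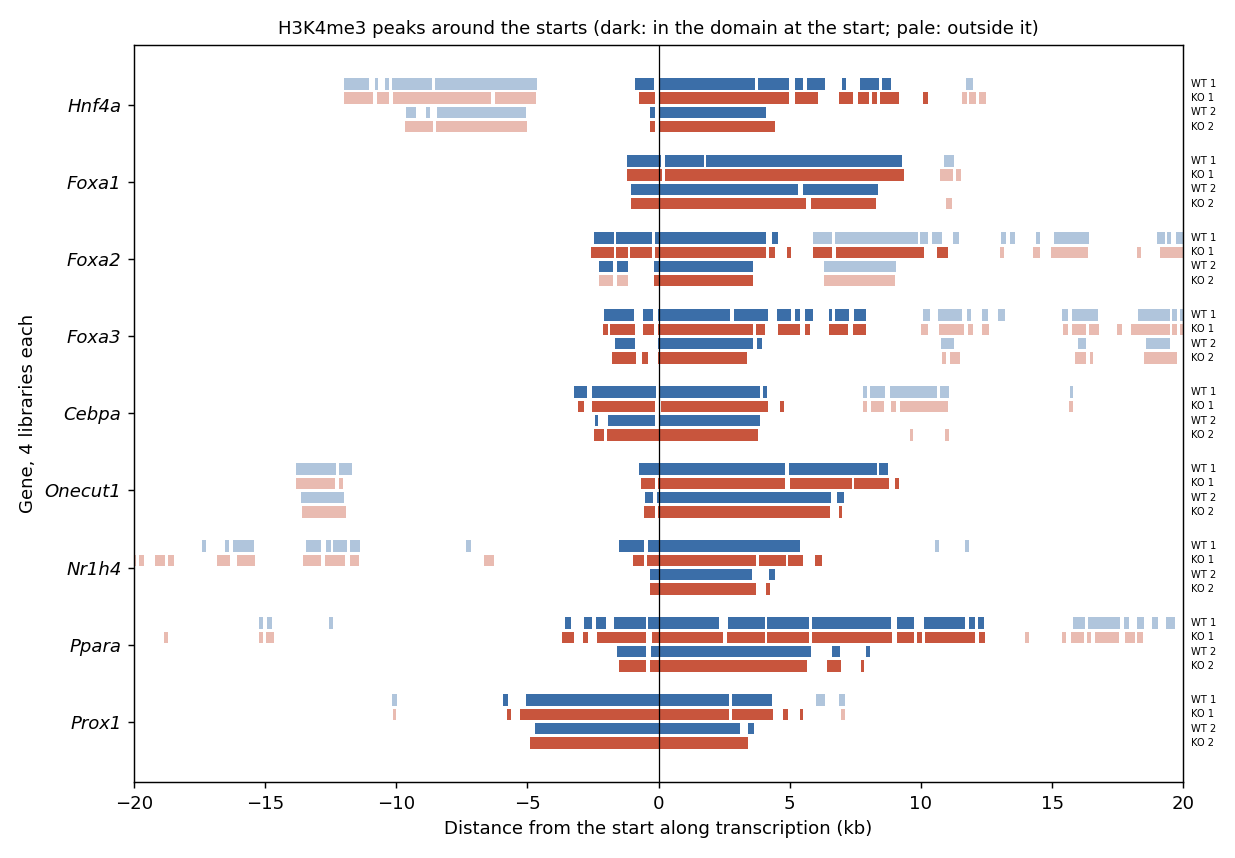
H3K4me3 peaks within 20 kb of the start of each gene, by distance along transcription (horizontal axis, kb), in 4 libraries per gene (WT blue, KO red; dark in the domain at the start, pale outside). The Onecut1 and Foxa1 domains lie mostly after the start and that of Prox1 on both sides; at Foxa2, the domain is long in KO replicate 1 and short in KO replicate 2.

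With peaks joined over 1 kb, the WT and KO breadths overlapped at every one of the 9 genes. Both KO breadths were above both WT breadths at 0 members (3.05% of all genes) and below them at 0 (0.557%). Without joining of peaks, both KO values were above both WT values at 3 members, Hnf4a, Cebpa and Prox1 (10.7% of genes), and below at 0 (2.91%). With the lists reduced to an equal covered length, they were above at 1, Hnf4a (6.32%), and below at 1, Nr1h4 (4.69%). Within both replicates KO was higher at 1 member, Hnf4a (36.7% of genes), and lower at 0 (11.2%). In replicate 1 all 9 members were higher in KO, with a median ratio of 1.04 against 0.992 for all genes. In replicate 2 the count was 1 higher and 8 lower, with a median ratio of 0.993 against 1.08. The differences ran from 43 bp at Foxa3 to 6565 bp at Foxa2 in replicate 1. In replicate 2 they ran from -2097 bp at Foxa2 to 371 bp at Hnf4a. The share of all genes higher or lower within a single replicate was not counted, so these counts of members have no base rate. For Ppara the mean was 12.8 ± 4.49 kb (SD, n = 2) in WT and 12.7 ± 4.79 kb in KO, and for Foxa1 it was 9.95 ± 0.751 kb and 9.95 ± 0.841 kb.

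A measure that needs no joining brought the Foxa2 values together. The total peak length over each gene and 10 kb on each side gave, over the 9 members, KO to WT ratios of 0.966 to 1.1 in replicate 1 and 0.986 to 1.16 in replicate 2. It was higher in KO in both replicates at 5 members (35.8% of all genes) and lower at 1, Foxa2 (7.34%). Hnf4a had the largest log2 ratios, 0.14 and 0.22, from 16.1 and 8.55 kb in WT to 17.7 and 9.96 kb in KO. The medians of all genes were -0.03 and 0.18, so the Hnf4a value in replicate 2 lay near the shift of the whole library. The Kupffer cell list, whose 6 genes had no domain in all 4 libraries, had a median breadth of 0 kb in both replicate 1 libraries, 0.482 kb in WT replicate 2 and 1.19 kb in KO replicate 2. The part of cell mixture in these values was not tested.

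**Figure D3:**
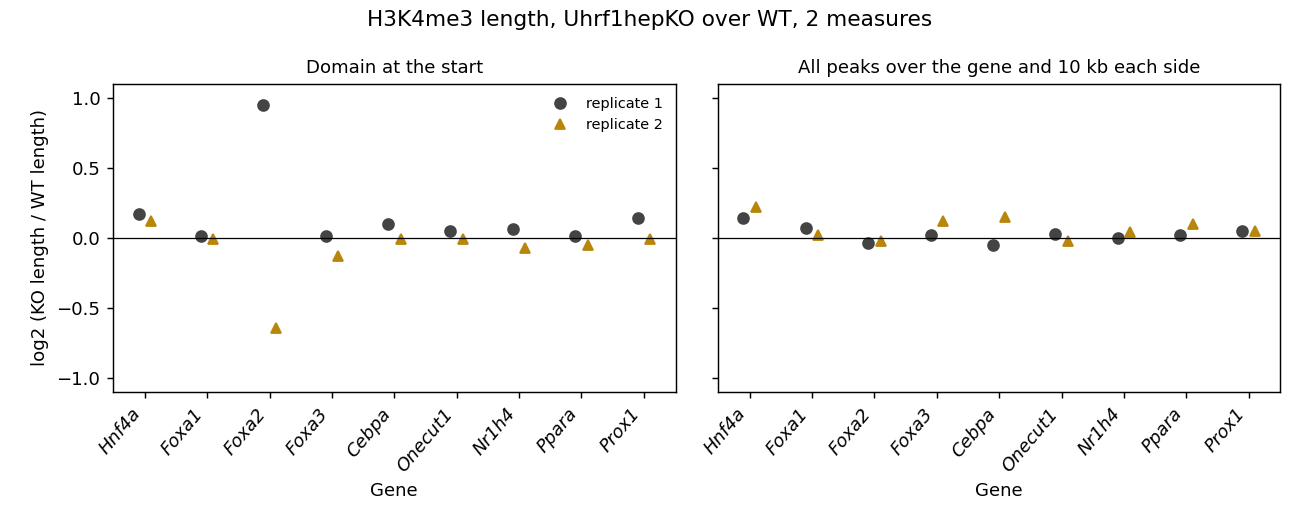
Log2 ratio of KO to WT H3K4me3 length (vertical axis) for the 9 genes in replicate 1 (circles) and replicate 2 (triangles), for the domain at the start (left) and for all peaks over the gene and 10 kb on each side (right). Foxa2 stands at 0.95 and -0.64 on the left but at -0.04 and -0.02 on the right.

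No member carried H3K27me3 over its start in any of the 6 libraries. An island within 1 kb of the start was found at 0 of 9 members each time, against 20.8% of genes in WT replicate 1, 26% at 0 h, 21.5% in KO, 16.0% at 30 h, 15.4% at 40 h and 23.1% at 96 h. No island touched a member gene body either, though the share of all genes was not counted for this. Within 50 kb of the start an island lay at 1 member in WT replicate 1 (45.5% of genes), 2 at 0 h (55.1%), 1 in KO (49.2%), 1 at 30 h (43.6%), 1 at 40 h (44.4%) and 2 at 96 h (53.3%). The members were Foxa2 each time, and Foxa3 at 0 and 96 h. The median distance to the nearest island was 142 kb in WT replicate 1, 86.2 kb at 0 h, 146 kb in KO, 149 kb at 30 h, 142 kb at 40 h and 147 kb at 96 h. For all genes it was 61.5, 37.4, 50.7, 66.8, 64.5 and 40.9 kb in that order.

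**Figure D4:**
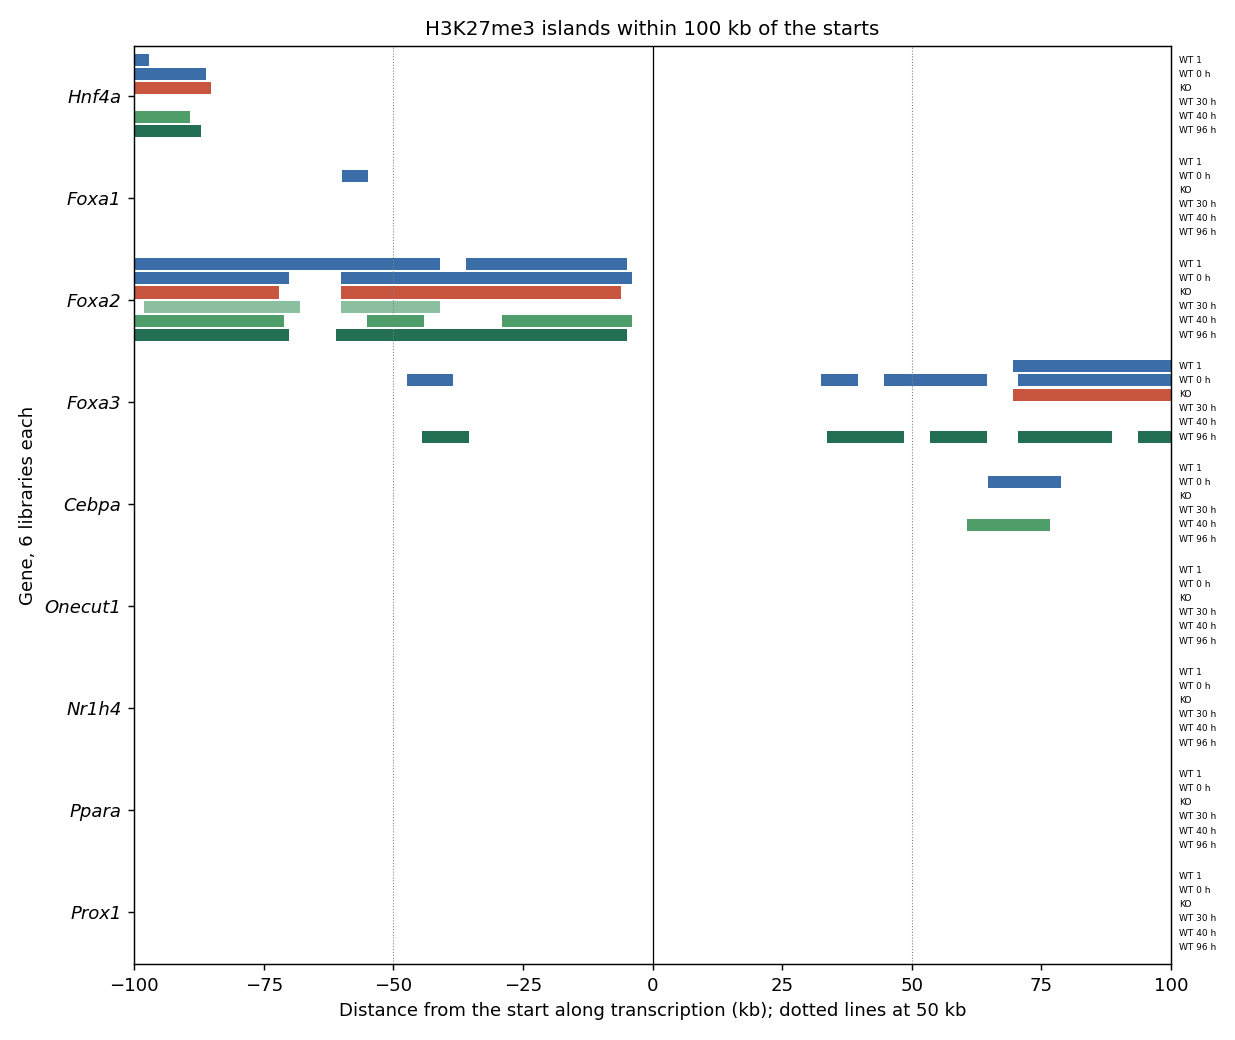
H3K27me3 islands (bars) within 100 kb of each start, by distance along transcription (kb), in 6 libraries per gene (WT baseline blue, KO red, WT at 30, 40 and 96 h green). Foxa2 is flanked on its upstream side in every library, and Onecut1, Nr1h4, Ppara and Prox1 show no bar.

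Foxa2 had Polycomb-type chromatin close by, on 1 side only. The nearest island ended 5.03 kb upstream in WT replicate 1, 4.03 kb at 0 h, 6.03 kb in KO, 41.0 kb at 30 h, 4.03 kb at 40 h and 5.03 kb at 96 h. The H3K4me3 domain reached 2.47 and 2.26 kb upstream in WT and 2.56 and 0.162 kb in KO, so the marks did not meet. No protein-coding gene lay in these islands, and the nearest island downstream was 239 to 244 kb away. The islands closest to the start had folds of 1.42 to 1.63.

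The island length beside Foxa2 was lowest at 30 h. Within 50 kb it was 40.0 kb in WT replicate 1, 46.0 kb at 0 h and 44.0 kb in KO, so KO lay between the WT libraries. It was 8.97 kb at 30 h, 31.0 kb at 40 h and 45 kb at 96 h. The values at 30 and 40 h were below all 3 baseline libraries, and that at 96 h was within the WT baseline range. The values were the same with all lists reduced to an equal covered length. They depended on weak islands, since with islands of fold 1.5 or more alone the length was 8.97 kb in WT replicate 1, 0 kb at 0 h, 44.0 kb in KO, 8.97 kb at 30 h, 5.97 kb at 40 h and 45 kb at 96 h, and the drop at 30 h from 0 h was no longer called.

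Foxa3 had islands within 50 kb at 0 h (21.5 kb) and at 96 h (24 kb), and 0 kb in WT replicate 1, in KO and at 30 and 40 h. They covered Nanos2, a germ cell gene, Rsph6a, a sperm flagellum gene, and at 0 h a part of Nova2, a neuronal splicing gene. The 2 WT baseline libraries, which do not share a round label, disagreed here, by 21.5 kb, against at most 24 kb between times. Nova2 held an island 69.5 to 70.5 kb downstream in WT replicate 1, at 0 h, in KO and at 96 h, and no island lay within 100 kb at 30 and 40 h.

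Read by call, the island length within 50 kb was halved at 30 h at 2 of the 2 members with at least 5 kb at 0 h, against 39.2% of 11611 genes. At 40 h it was halved at 1 (41.5%), Foxa3, and at 96 h at 0 (24.9%). It doubled at 0 members at 30 h (5.07%), 40 h (5.64%) and 96 h (7.36%). Each time had 1 library, so these differences have no replicate check. In KO no member gained an island over the start (0.905% of genes), and 0 lost (1.67%) or gained (1.75%) all islands within 50 kb. A loss over the start (1.27% of genes) could not be called at any member, since none had an island there in WT. Within 50 kb only Foxa2 had islands in both WT libraries, so a loss could be called there alone. These shares are over all 21887 genes, with or without an island in WT.

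Farther out, Hnf4a had an island over Gdap1l1, a relative of the neuropathy gene Gdap1. It ended 97.2 and 86.2 kb upstream in WT, 85.2 kb in KO, 89.2 kb at 40 h and 87.2 kb at 96 h, but at 30 h the nearest island was 169 kb away. Cebpa had an island over Slc7a10, an amino acid transporter gene, at 64.7 kb at 0 h and 60.7 kb at 40 h, and otherwise none nearer than 121 kb. Foxa1 had 1 weak island over Ttc6 at 54.9 kb, with a fold of 1.23, at 0 h alone. At the same place the authors' lists held islands of fold 1.0 at 30 h and 1.09 at 40 h, which missed the limit on the false discovery rate at 1.0 and 0.0734.

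Onecut1, Nr1h4, Ppara and Prox1 lay in long stretches free of islands. The nearest island was 204 to 212 kb away at Onecut1, 115 to 149 kb at Nr1h4, 129 to 147 kb at Ppara and 169 to 316 kb at Prox1. In KO the distances were 207 kb at Onecut1, 116 kb at Nr1h4, 146 kb at Ppara and 217 kb at Prox1. Each was inside the span of the 5 WT libraries, which include the times of regeneration. In WT replicate 1 and at 0 h the distances were 204 and 206 kb at Onecut1 and 145 and 134 kb at Nr1h4. They were 142 and 129 kb at Ppara and 316 and 204 kb at Prox1. Against these baseline libraries, KO lay between the WT values at Prox1 alone.

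**Figure D5:**
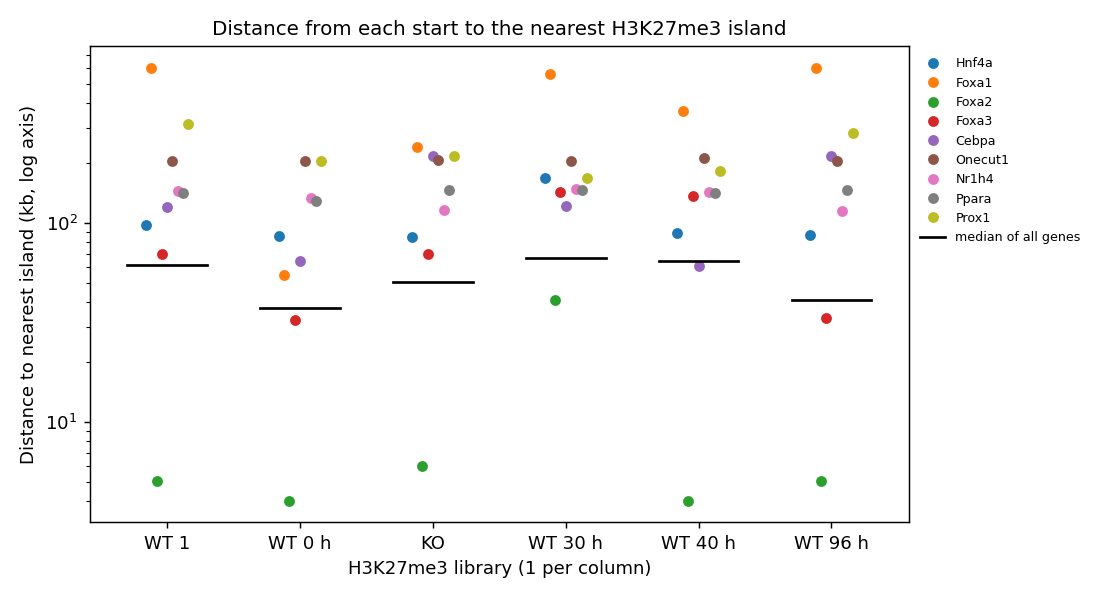
Distance in kb (log axis) from each start to the nearest H3K27me3 island in the 6 libraries; each point is 1 gene in 1 library and black bars mark the median of all genes. Foxa2 lies below the median in all 6 libraries, Foxa3 at 0 and 96 h and Cebpa at 40 h, and the other points lie above.

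H3K9me3 broad peaks lay near some of these genes, and the WT count was close to the share of all genes. Within 50 kb of the start a broad peak lay at 5 members in WT (64.1% of genes) and at 3 in KO (65.3%). No broad peak lay in a member's H3K4me3 domain, for which the share of all genes was not counted. None of the 9 had 10% or more of its body covered in WT (3.08% of genes) or in KO (2.82%). At shares this low, the absence of covered bodies does not set the 9 genes apart. The 9 genes together had 6 peaks of 1947 bp in WT and 3 peaks of 1181 bp in KO. Narrow peaks gave the opposite order, with 2 members in WT (56.9% of genes) and 4 in KO (58.0%). With 1 library per genotype, there is no replicate check.

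The same 2 peaks recurred in WT and KO. At Onecut1 a peak 18.5 kb upstream had a fold of 3.75 in WT and 3.59 in KO. At Cebpa a peak 25 kb upstream had a fold of 3.17 in WT, and in KO a peak at 24.9 kb had 4.13. Hnf4a had 2 peaks 24.3 and 25.8 kb upstream of its proximal start (1.16% of the gene body), and Foxa1 and Foxa2 1 each, in WT alone. Ppara had 1 peak inside the gene in KO alone (0.808% of the body). None of these peaks passed a −log10 q of 5. The −log10 of the q-value of these 9 peaks was 1.62 to 3.61. The median nearest broad peak was 37.3 kb away in WT and 53.6 kb in KO, against 31.9 and 31.0 kb for all genes.

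Other genes of liver were set beside the members. Of 40 genes for hepatocyte products, 39 had a domain in all 4 libraries and 21 were among the broadest, Cps1 at a mean of 13.2 kb and Ass1 at 11.8 kb among them, and 0 carried an island over the start. Of 41 other hepatocyte transcription factors, 39 had a domain in all 4 and 9 were among the broadest in all 4. The highest means on this list were 14.7 kb at Bcl6, 13.5 kb at Nr2f2 and 13.2 kb at Klf15. Nr2f2 was not among the 9, since its libraries were unlike, with 18.2 and 2.27 kb in WT and 17.1 and 16.5 kb in KO. Some of these factors had an island over the start in at least 1 library, namely Nfia, Tbx3, Cux2, Nr2f2, Nr2f1 and Gata4. The counts per library were 5 of 41 in WT replicate 1, 4 at 0 h and 4 in KO. They were 1 at 30 h, 2 at 40 h and 5 at 96 h. With counts this low, the 0 of 9 members in each library does not set the members apart from this list.

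The paralogs of the members differed from them in level. Of 13, 10 had a domain in all 4 libraries and 1, Onecut2, was among the broadest, at a mean of 7.96 kb against 8.62 kb for Onecut1. Cebpb followed at 5.71 kb and Cebpd at 3.85 kb. Islands over the start were found at Onecut3 in both WT baseline libraries, in KO and at 96 h, at Cebpe in both WT baseline libraries and in KO, at Pparg in both WT baseline libraries and at 96 h, and at Nr1h5 in KO. None of the 6 bile duct, 6 endothelial, 6 stellate, 6 Kupffer and 6 lymphocyte marker genes was among the broadest. In that order, 2, 6, 3, 0 and 1 of them had a domain in all 4 libraries. Of all genes with such a domain, 2.58% were among the broadest, so the absence does not set these lists apart from other genes.

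The genes whose 10 values (breadth in 4 H3K4me3 libraries and island length within 50 kb in 6 H3K27me3 libraries, as log2 of the kb plus 1) came closest to Hnf4a included Akr1c6, Mtus1, Hnrnpu and Mettl7a1, at Euclidean distances of 0.14 to 0.21. Those closest to Foxa2 were farther off, Mbd6 and Ddit3 at 1.33, Klhl9 at 1.73, and Slc9a3r1 and Rab37 at 1.76. Mbd6 and Ddit3 shared 1 domain, as did Slc9a3r1 and Rab37. The 6 island lengths of Hnf4a were all 0, as they were for the genes named beside it, and the 13.6 kb of Foxa2 in KO replicate 1 depended on the joining of peaks, so the distances of the 2 groups are not set against each other.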

How the data were processed

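The 12 ChIP libraries had region lists, called by the authors per library; the inputs had none. Per the submitters' processing notes, the tools were BWA, MACS2, SICER, Picard, Trimmomatic and FastQC 0.11.5, and the builds were GRCm38.p4 and mm10. Their settings were not stated in those sources. The deposited H3K4me3 and H3K9me3 lists have the MACS2 layout, and each peak has a score, a fold over background and −log10 values of its p and q. The deposited H3K27me3 lists hold SICER islands with a fold over control, a p-value and a false discovery rate given as a q-value, and the deposited read counts per island were not used. The input used for each list was not stated.

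Coordinates were read with Python 3.11.15, numpy 2.4.6 and pandas 2.3.3, and figures drawn with matplotlib 3.10.9. The start of each gene was the annotated start (RefSeq GRCm38.p6) with the longest mean H3K4me3 domain, and peaks were joined over gaps of at most 1 kb. Islands at a false discovery rate of at most 0.01 were kept, and windows of 50 kb either side of the start were measured for islands and broad peaks. No test between groups was run, since groups had 1 or 2 libraries. The sequencing depth of each library is unknown here, so no counting interval is given. The steps were tested on simulated data, where lengths and distances matched in 200 of 200 checks and 200 of 200 genes planted as narrower in KO were found, with 317 of 1800 unplanted genes called narrower too. The planted domains were single unbroken stretches with the same small variation in every library. In the deposited lists the replicates differed in depth and domains were broken into peaks. The rate of finding planted genes therefore does not carry over to the members. The members, lists and rules were chosen with earlier results of these data known. The text names all 9 members, list genes with an island over the start, up to 3 with the broadest domain per list, and the 5 closest profiles to Foxa2 and Hnf4a; some genes that this rule names are not reported here. Alternatives were other joining distances, stricter peaks, equal covered length, other windows, the other gene end and left-out libraries; total peak length over the locus was added after seeing the data.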

Additional observations from a re-analysis of the deposited data

How the results depend on the processing

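With 111 of the 158 alternative values of the main counts and medians, nothing changed beyond 1.5 times or the spread between replicates, and 47 moved. The count of 0 members with an island over the start held with all deposited islands, the only alternative that could raise it. It could do so only at 0, 30, 40 and 96 h. In WT replicate 1 and in KO no island had been left out, so the count there was fixed in advance. Stricter islands and equal covered length only remove islands, and the wider or narrower windows do not enter this count. Its unchanged values under those settings were therefore fixed in advance, though they are among the 111. Without joining of peaks, KO breadth was higher in both replicates at 4 members, lower at 1 and above both WT values at 3, and the median breadth in replicate 1 was 3.89 kb in WT and 4.15 kb in KO. With joining over 3 kb the counts were 2 higher and 2 lower, 5 were among the broadest and the WT replicate 1 median was 12.9 kb. Peaks with −log10 q of at least 5 gave 2 higher. Equal covered length gave 3 lower, 1 above and 1 below both WT values, 5 among the broadest and replicate 1 medians of 5.82 kb in WT and 5.49 kb in KO. Starts at the gene end with more H3K4me3 gave 0 higher. Total peak length over the locus gave 5 higher, 1 lower and a WT replicate 1 median of 12.6 kb. Leaving out replicate 1 or 2 gave 1 to 9 higher and 0 to 8 lower, since all 9 were higher in replicate 1 and 8 lower in replicate 2. With islands of fold 1.5 or more, 1 member had an island within 50 kb at 0 h, and length was halved at 1 at 30 h and 1 at 96 h. In a window of 20 kb the members with an island were 1 at 0 h, 0 at 30 h and 1 at 96 h, and length was halved at 1 at 30 h and 0 at 40 h. In a window of 100 kb they were 3 in WT replicate 1, 5 at 0 h, 3 in KO and 3 at 40 h, and length was halved at 4, 2 and 2 at 30, 40 and 96 h. With WT replicate 1 in place of the 0 h library, length was halved at 1 at 30 h and 0 at 40 h. Leaving out WT replicate 1 or 2 gave 0 to 1 members whose islands within 50 kb were lost in KO, the 1 being Foxa3. By narrow peaks, H3K9me3 lay within 50 kb of 2 members in WT and 4 in KO, the opposite order to the 5 and 3 of broad peaks, and it was found at 0 in WT and 0 in KO at −log10 q of at least 5. For broad peaks a 20 kb window gave 1 in WT and 1 in KO, and a 100 kb window 9 and 8. The shares of all genes in the 20 and 100 kb windows were not counted, and a wider window can only raise the number of genes with a peak or island. The cause of these changes was not tested. The ratios within replicates 1 and 2 pair KO with WT and are given with the breadths; 2 pairs were not tested. Island and peak lengths depend on the depth of each list, which differed most between H3K4me3 replicates.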
